A study of Mus musculus with 2 samples.

Results

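Chondroitin sulfate is the sulfated sugar chain that cartilage proteoglycans carry. The 10 genes described here, Ugdh, Uxs1, Slc26a2, Papss2, Xylt1, Csgalnact1, Chsy1, Chsy3, Chst11 and Chst3, encode enzymes and a transporter that make it. The set was made up by that role, with earlier results of these data known. The genes were found by gene symbol, and all 10 were among the 21849 genes counted in the libraries. The question was how much of this machinery was measured in cartilage cells taken straight from the rib and how much in the same kind of cell after growth on plastic.

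Synthesis runs through stages that take place in the cytosol and the Golgi. Sugar nucleotides and an activated form of sulfate are made first. A xylose is then placed on a serine of the core protein, a short linkage region is built on it, and the chain grows by alternating N-acetylgalactosamine and glucuronic acid. Sulfotransferases add sulfate to the 4 or the 6 position of the N-acetylgalactosamine. In cartilage the chains on aggrecan hold water and give the tissue its resistance to compression.

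The data came from single-cell RNA sequencing of costal-cartilage-derived stem cells (CDSCs). Primary CDSCs gave 1 library, and CDSCs cultured to passages 2 to 3 gave another. Per the study's methods, CDSCs were digested from the rib cartilage of newborn C57BL/6J mice, either CD45.1 or ZsGreen, in the week after birth, and sorted as CD45-CD51+ cells. The cultured cells were then grown in minimum essential medium with serum. The labels name bone marrow as the tissue of both libraries. Neither library was said to come from a known number of animals.

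With 1 library per group there was no replicate and no test was run. All intervals are exact 95% intervals that cover counting error only, over unique molecular identifiers (UMIs), each of which stands for a captured transcript. The kept cells numbered 11746 in primary CDSCs and 5338 in cultured CDSCs, with medians of 10026.5 and 56864.5 UMIs per cell. Levels are given in CPM, for which the UMIs of a gene were summed over the kept cells and scaled to a library total of 1000000. Of the 13 chondrocyte markers examined, 0 were higher in the cultured library, and their summed level was 90826 CPM in the primary cells and 1083 CPM in the cultured cells. ZsGreen had 60957 counts for primary cells and 0 for cultured cells, and the Y-linked gene Uty stood at 0.0802 CPM in primary CDSCs and 61.2 CPM in cultured CDSCs. The libraries thus differed in the donors' genotype and sex, and donor and culture cannot be told apart in any value that follows. Of the genes behind the sort, Itgav (CD51) stood at 92.5 and 109 CPM and Ptprc (CD45) at 0.620 and 0.345 CPM, primary first. The libraries shared 15 kept cell barcodes.

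Most of the 10 genes were lower in cultured CDSCs. Together they made up 3900 CPM (interval 3889 to 3910) of the primary library and 764 CPM (761 to 767) of the cultured one, a 5.11-fold difference. Against the primary library, 8 of the 10 were lower by 2-fold or more in cultured CDSCs, 2 were within 2-fold and 0 were higher by as much. Among all 9115 genes that reached 10 CPM in 1 of the libraries or both, 12.5% were lower by 2-fold or more, 27.2% were higher by as much, and 39.8% passed 2-fold in either direction. At 4-fold, 6 of the 10 were lower and 0 were higher, where 5.73% of all genes were lower, 10.6% were higher and 16.3% passed in either direction. The median log2 ratio of cultured over primary was -2.44 for the 10 genes and 0.37 for all genes, with the middle 50% of all genes between -0.33 and 1.08. The summed level of 8 smooth muscle and pericyte markers was 355 CPM in primary and 2613 CPM in cultured CDSCs. Of these 8 markers, 5 were higher in cultured CDSCs. That of 10 mesenchymal markers was 3294 and 1754 CPM, with 6 of the 10 higher in cultured CDSCs. The part of such shifts in cell state or cell type in the 10 genes was not tested.

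**Figure D1:**
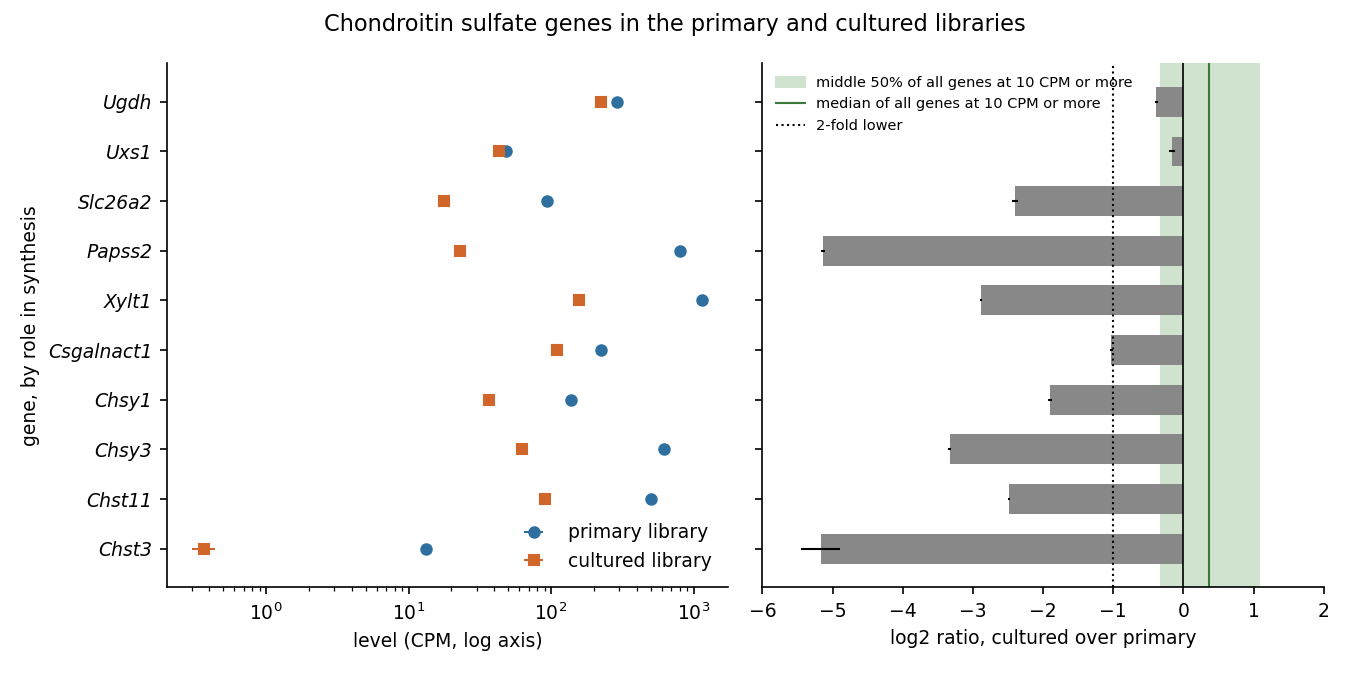
Left, level of each of the 10 genes in CPM on a log axis in the primary library (circles) and the cultured library (squares), with exact 95% counting intervals that are mostly hidden by the symbols. Right, log2 ratio of cultured over primary (bars, with counting intervals) against the median of all genes at 0.37 (green line) and their middle 50% (green band). Papss2 and Chst3 lie below -5, while Ugdh and Uxs1 lie to the right of the dotted line that marks 2-fold lower.

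Promoter sequences are shown for 4 of the genes, so that those with the lowest ratios (Chst3, Papss2) can be read beside Chst11, the 4-sulfotransferase gene, and beside Ugdh, which stayed within 2-fold. They run from 250 bases before to 50 bases after the start of transcription, 5′ to 3′ on the strand of the gene, from RefSeq on GRCm38.p6. Capitals mark the GC box letters GGGCGG and the SOX letters ACAAAG or ACAATG, each searched on both strands (CCGCCC is the GC box read on the other strand). The Ugdh promoter lies at chr5:65435793-65436092 on the minus strand, that of Papss2 at chr19:32595465-32595764 on the plus strand, that of Chst11 at chr10:82985247-82985546 on the plus strand and that of Chst3 at chr10:60219211-60219510 on the minus strand.
Ugdh: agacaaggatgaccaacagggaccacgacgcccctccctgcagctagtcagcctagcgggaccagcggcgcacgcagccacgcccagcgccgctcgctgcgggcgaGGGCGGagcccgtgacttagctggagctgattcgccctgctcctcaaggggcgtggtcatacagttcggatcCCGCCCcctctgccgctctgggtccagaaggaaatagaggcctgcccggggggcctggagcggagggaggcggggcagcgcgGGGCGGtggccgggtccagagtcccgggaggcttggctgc
Papss2: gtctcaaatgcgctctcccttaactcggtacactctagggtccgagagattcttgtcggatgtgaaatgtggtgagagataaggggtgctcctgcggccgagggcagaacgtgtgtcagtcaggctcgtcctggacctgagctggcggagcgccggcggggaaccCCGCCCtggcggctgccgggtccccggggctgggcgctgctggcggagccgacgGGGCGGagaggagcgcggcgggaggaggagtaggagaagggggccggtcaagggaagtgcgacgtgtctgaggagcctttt
Chst11: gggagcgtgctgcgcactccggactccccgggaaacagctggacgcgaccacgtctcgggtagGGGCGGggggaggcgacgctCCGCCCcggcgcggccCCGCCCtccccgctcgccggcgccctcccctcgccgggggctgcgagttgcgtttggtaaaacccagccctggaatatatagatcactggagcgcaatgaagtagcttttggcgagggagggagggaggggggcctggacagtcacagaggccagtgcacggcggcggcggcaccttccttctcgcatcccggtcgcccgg
Chst3: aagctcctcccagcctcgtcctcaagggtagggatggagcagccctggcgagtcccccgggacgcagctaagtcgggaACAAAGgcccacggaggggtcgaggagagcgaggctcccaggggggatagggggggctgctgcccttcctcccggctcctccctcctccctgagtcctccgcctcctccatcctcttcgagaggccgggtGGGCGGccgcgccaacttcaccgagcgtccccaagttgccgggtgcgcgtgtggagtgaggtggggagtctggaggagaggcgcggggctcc

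The table of promoters held 7 entries for 6 of the 10 genes, with Uxs1 and Chsy1 as the others and with a second start for Papss2, and none for Xylt1, Csgalnact1, Slc26a2 and Chsy3. GC boxes were found in 6 of the 7 entries and in 35.7% of all 32841 promoters of the table. The SOX letters were found in the Chst3 promoter, at position -172 from the start, in 0 of the other entries and in 28.6% of all promoters. The letters TATAAA were in 0 of the 7 entries and in 13.6% of all promoters. Both Ugdh, within 2-fold, and Chst11, more than 4-fold lower, had promoters of 71.0% G and C with 3 GC boxes, where the median of all promoters was 52.7%. The second Papss2 start, at chr19:32619755-32620054, had 44.3% G and C and no GC box. The sequencing read the 3′ ends of transcripts, so it does not tell which Papss2 start was used.

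The pair of sugar nucleotide genes differed least of the 10. Gene positions are on GRCm38. Ugdh (ENSMUSG00000029201, chromosome 5, bases 65413221 to 65435949, minus strand) encodes UDP-glucose dehydrogenase, which makes the glucuronic acid donor. Its level was 292 CPM (interval 289 to 295) in the primary cells and 224 CPM (222 to 225) in the cultured cells, a log2 ratio of -0.39. Uxs1 (ENSMUSG00000057363, chromosome 1, bases 43746966 to 43827800, minus strand) encodes the enzyme that turns this donor into UDP-xylose. Its level was 48.3 CPM (47.1 to 49.5) for primary cells and 43.3 CPM (42.6 to 44.0) for cultured cells, a log2 ratio of -0.16 (-0.20 to -0.11). The sign of the Uxs1 ratio turned when each cell was given the same weight, to 0.13. Glucuronic acid and xylose are also used by heparan sulfate and other chains, so both genes serve more than chondroitin sulfate. Another gene, Gm43552, overlaps Ugdh on the same strand over 8523 bases, and it stood at 0.955 CPM in primary CDSCs and 1.77 CPM in cultured CDSCs.

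The genes of sulfate supply were both lower. Slc26a2 (ENSMUSG00000034320, chromosome 18, bases 61192919 to 61211612, minus strand) encodes the sulfate transporter of the plasma membrane, whose loss causes chondrodysplasia. It stood at 93.9 CPM (92.3 to 95.6) in the primary cells and at 17.8 CPM (17.4 to 18.3) in the cultured cells, a log2 ratio of -2.40. Papss2 (ENSMUSG00000024899, chromosome 19, bases 32595790 to 32667187, plus strand) encodes the PAPS synthase that cartilage relies on to turn sulfate into the activated donor PAPS. It stood at 807 CPM (802 to 812) for primary cells and at 23.0 CPM (22.4 to 23.5) for cultured cells. The log2 ratio of Papss2 was -5.14 (-5.17 to -5.10), a 35.2-fold difference, and 1.34% of all genes had a lower ratio.

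Xylt1 (ENSMUSG00000030657, chromosome 7, bases 117380979 to 117673580, plus strand) encodes the xylosyltransferase that starts the chain on the core protein. It stood at 1155 CPM (1149 to 1161) in primary CDSCs and at 156 CPM (155 to 158) in cultured CDSCs, a log2 ratio of -2.88, or 7.39-fold.

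The 3 genes of chain growth were lower by different factors. Csgalnact1 (ENSMUSG00000036356, chromosome 8, bases 68356781 to 68735146, minus strand) adds the N-acetylgalactosamine that commits the linkage region to chondroitin rather than heparan sulfate. Its level was 224 CPM (222 to 227) in the primary cells and 110.3 CPM (109 to 111) in the cultured cells, and its log2 ratio of -1.03 lay just past the 2-fold threshold. Chsy1 and Chsy3 encode chondroitin synthases, which lengthen the chain. Chsy1 (ENSMUSG00000032640, chromosome 7, bases 66109515 to 66173798, plus strand) stood at 138 CPM (136 to 140.1) for primary cells and at 37.0 CPM (36.3 to 37.6) for cultured cells, a log2 ratio of -1.90. Chsy3 (ENSMUSG00000058152, chromosome 18, bases 59175401 to 59535999, plus strand) stood at 623 CPM (619 to 628) in primary CDSCs and at 62.0 CPM (61.2 to 62.9) in cultured CDSCs, a log2 ratio of -3.33, or 10.0-fold. The intervals of the Chsy1 and Chsy3 ratios did not overlap, at -1.94 to -1.87 and -3.35 to -3.31.

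Both sulfotransferases were lower. Chst11 (ENSMUSG00000034612, chromosome 10, bases 82985498 to 83195900, plus strand) adds sulfate to the 4 position. It stood at 504 CPM (500.4 to 508) in the primary cells and at 90.0 CPM (89.0 to 91.1) in the cultured cells, a log2 ratio of -2.49, or 5.60-fold. Chst3 (ENSMUSG00000057337, chromosome 10, bases 60181532 to 60219260, minus strand) adds sulfate to the 6 position. It was low in both libraries, with 1805 counts and 13.2 CPM (12.6 to 13.8) for primary cells and 121 counts and 0.367 CPM (0.304 to 0.438) for cultured cells. Its log2 ratio of -5.17 (-5.44 to -4.90) was the lowest of the 10, and its interval included the ratio of Papss2.

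For most of these enzymes the mouse has another gene with the same activity, and the pairs show which gene gave the transcripts. In the primary library Chst3 held 97.8% (interval 97.0 to 98.4) of the UMIs of Chst3 and Chst7, the other 6-sulfotransferase, with 41 counts of Chst7. In the cultured library Chst3 held 3.32% (2.76 to 3.95), with 3523 counts of Chst7. The level of Chst7 was 0.299 CPM in primary CDSCs and 10.7 CPM in cultured CDSCs, a log2 ratio of 5.16 (4.71 to 5.64). The pair thus exchanged places, although the sum stayed low in both libraries.

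In the pair of Papss2 and Papss1, the PAPS synthases, both genes were lower, Papss2 by far more. Papss2 held 91.8% of the pair's UMIs in the primary cells and 37.0% (36.4 to 37.7) in the cultured cells, while Papss1 went from 72.5 to 39.0 CPM, a log2 ratio of -0.89. Chst11 held 92.2% of the UMIs of Chst11 and Chst12, both 4-sulfotransferases, for primary cells and 70.4% for cultured cells. Chst12 stood at 42.9 and 37.8 CPM, within 2-fold. In these 3 pairs the share of the listed gene was lower in cultured CDSCs.

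The remaining pairs moved less or the other way. Xylt1 held 99.4% of the UMIs of Xylt1 and Xylt2 in primary CDSCs and 94.6% in cultured CDSCs. Csgalnact1 held 75.8% of its pair with Csgalnact2 in the primary cells and 78.8% in the cultured cells, with both genes lower in cultured CDSCs. The share of Chsy1 in its pair with Chsy3 was 18.1% (17.9 to 18.4) for primary cells and 37.3% (36.8 to 37.9) for cultured cells, and of the pair Chsy3 had the larger difference.

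**Figure D2:**
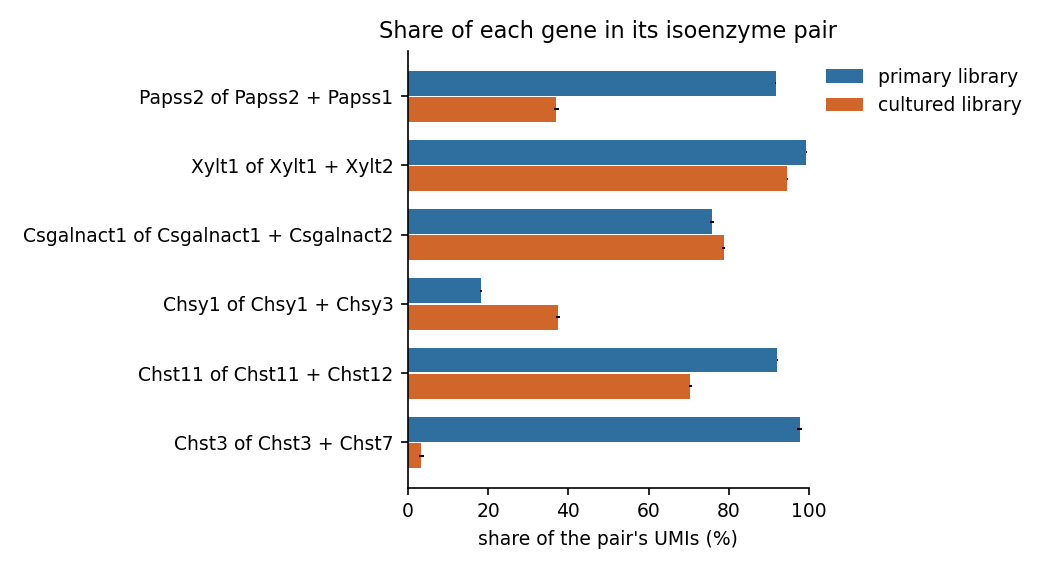
Portion of the UMIs of each isoenzyme pair that came from the gene named first, in percent, in the primary library (blue) and the cultured library (orange), with exact 95% binomial intervals. Chst3 gave 97.8% of its pair in primary CDSCs and 3.32% in cultured CDSCs, and Papss2 gave 91.8% and 37.0%, while the Csgalnact1 bars differ by a few percentage points.

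The other genes of the same stages were read from lists. Beside the 10 genes, the 5 lists of sugar nucleotide supply, sulfate supply, linkage region, chain growth, and sulfation with epimerization held 35 genes, of which 28 reached 10 CPM in either library. Among these 28, 11 were lower and 4 were higher by 2-fold or more in cultured CDSCs, and their median log2 ratio was -0.26. Over all genes 12.5% were lower and 27.2% were higher by as much, with a median of 0.37. In sugar nucleotide supply, 6 of 10 genes were at least 2-fold lower and 0 were higher. Gfpt2, an amidotransferase that feeds the making of amino sugars, went from 143 to 4.90 CPM, a log2 ratio of -4.87. Slc35d1, a transporter that brings sugar nucleotides for the chain to the site of synthesis, had a log2 ratio of -1.79.

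In sulfate supply, 7 other genes were listed and 4 reached 10 CPM. Of these 4 genes 0 passed 2-fold, where 39.8% of all genes did. Among them was Slc35b2, the PAPS transporter of the Golgi, at a log2 ratio of -0.89. In the linkage region, 3 of 5 were lower, where 12.5% of all genes were. These were the xylose phosphatase gene Pxylp1 at -1.83, the xylose kinase gene Fam20b at -1.30 and the galactosyltransferase gene B4galt7 at -1.27. In chain growth, Csgalnact2 was lower at -1.27, while Chpf and Chpf2, whose products act with the chondroitin synthases, stood at 0.60 and -0.30.

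The sulfation and epimerization list moved in both directions. Of its 6 other genes, 4 were at least 2-fold higher and 1 was lower, where 27.2% of all genes were higher and 12.5% lower. The higher ones were Chst7 and 3 genes of dermatan sulfate, the form of the chain in which glucuronic acid is turned into iduronic acid. Chst14, the dermatan 4-sulfotransferase gene, went from 4.40 to 14.7 CPM, a log2 ratio of 1.74. Dse, an epimerase gene, went from 51.6 to 135 CPM, a log2 ratio of 1.39. Dsel, its relative, lay at the threshold with 1.00. Ust, a uronyl 2-sulfotransferase gene, was lower at -2.37. With TMM scaling of the libraries, which moved the median of all genes from 0.37 to 0.16, 3 of the same 28 genes were higher and 13 were lower. Dsel then stood at a log2 ratio of 0.81, within 2-fold, and the sulfate supply genes Papss1 and Slc35b2 were lower by more than 2-fold, at -1.09 and -1.08.

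The core proteins that carry these chains were also read, with 7 of 12 at 10 CPM or more. Of these, 5 were at least 2-fold lower and 2 were higher, where 12.5% of all genes were lower and 27.2% higher. Acan, the aggrecan gene, went from 1954 to 2.51 CPM and Epyc, the epiphycan gene, from 1029.6 to 0.524 CPM. Bgn, the biglycan gene, went from 4164 to 1204 CPM. Cd44, a hyaluronan receptor that carries chondroitin sulfate in some forms, went from 8.11 to 358 CPM, and Vcan, the versican gene, from 2.90 to 17.5 CPM.

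**Figure D3:**
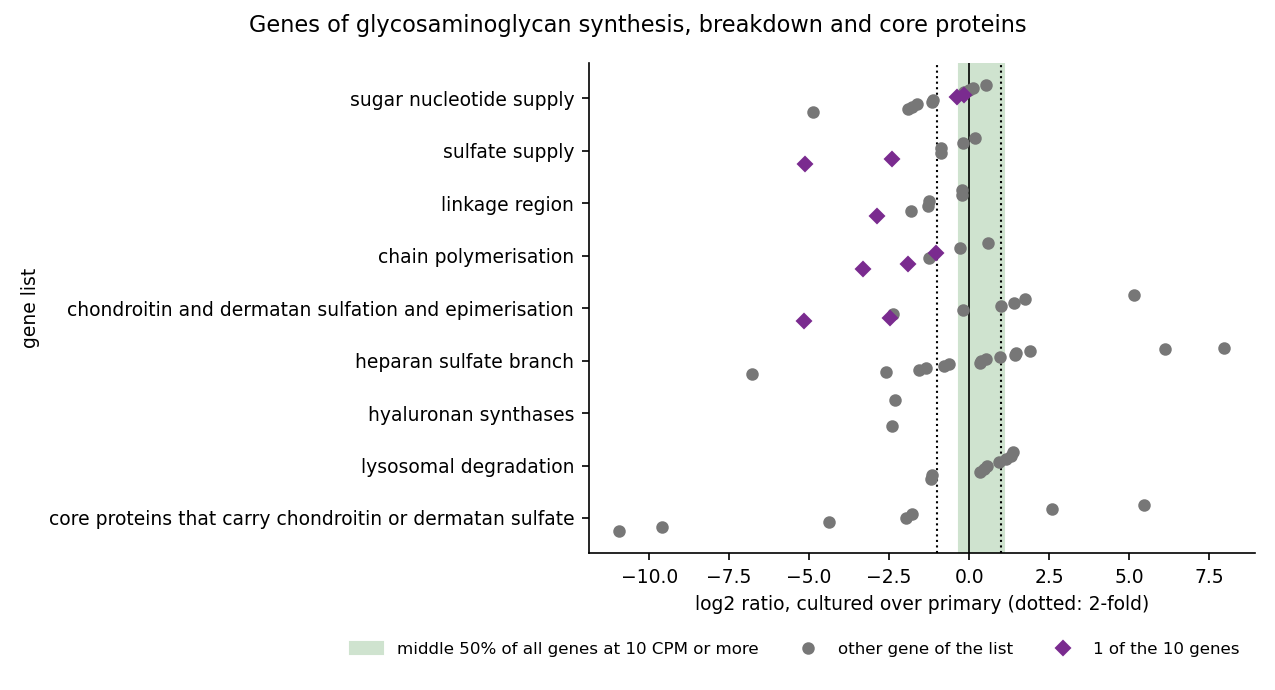
Log2 ratio of cultured over primary for each gene of 9 lists that reached 10 CPM in either library, with the 10 genes as diamonds, the other genes as circles, the middle 50% of all genes as a green band and dotted lines at 2-fold. In the sulfate supply and linkage region lists the lowest points are diamonds, and the sulfation list spreads from -5.17 for Chst3 to 5.16 for Chst7.

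The differences were read in single cells after each cell had been thinned to 5000 UMIs, since cultured cells had more UMIs per cell. Whether deeper sequencing or more RNA per cell gave the higher number was not tested. This used 10959 primary and 4543 cultured cells and left out 787 and 795 shallower ones. At this depth 0 of the 10 genes had a higher share of cells with a UMI in the cultured library, a count that was not made over all genes. Papss2 had a UMI in 85.2% of primary cells (interval 84.5 to 85.8) and in 11.1% of the cultured ones (10.2 to 12.0). Xylt1 had a UMI in 91.8% and 44.0% (42.5 to 45.4), and Chst11 in 77.4% and 32.1%. The shares of Ugdh, 59.4% and 58.5%, and of Uxs1, 19.3% and 19.1%, had overlapping intervals. Chst3 was found in 5.97% of primary cells, and 13 of 4543 cultured cells had a UMI of it, or 0.286% (0.152 to 0.489). Without thinning, 4 genes had the higher share in the cultured library, Ugdh at 74.0% and 87.2%, Uxs1 at 37.5% and 74.5%, Slc26a2 at 48.0% and 51.6%, and Chsy1 at 61.9% and 70.5%. Mean UMIs per cell without thinning, primary first, were 3.41 and 13.8 for Ugdh and 0.564 and 2.68 for Uxs1. They were 2.62 and 6.82 for Csgalnact1, 1.61 and 2.29 for Chsy1 and 1.10 in both libraries for Slc26a2. For Papss2, Xylt1, Chsy3, Chst11 and Chst3 they were lower in cultured cells.

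Counted per cell, a median of 5 of the 10 genes (middle 50% of cells 4 to 6) had a UMI in a primary cell and 2 (1 to 3) in a cultured cell. None of the 10 was found in 0.173% of primary and 7.26% of cultured cells. The median cell held 17 UMIs of the 10 genes in the primary cells and 3 in the cultured cells. At least 5 of the 10 genes were found in 73.3% of primary and 9.62% of cultured cells.

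**Figure D4:**
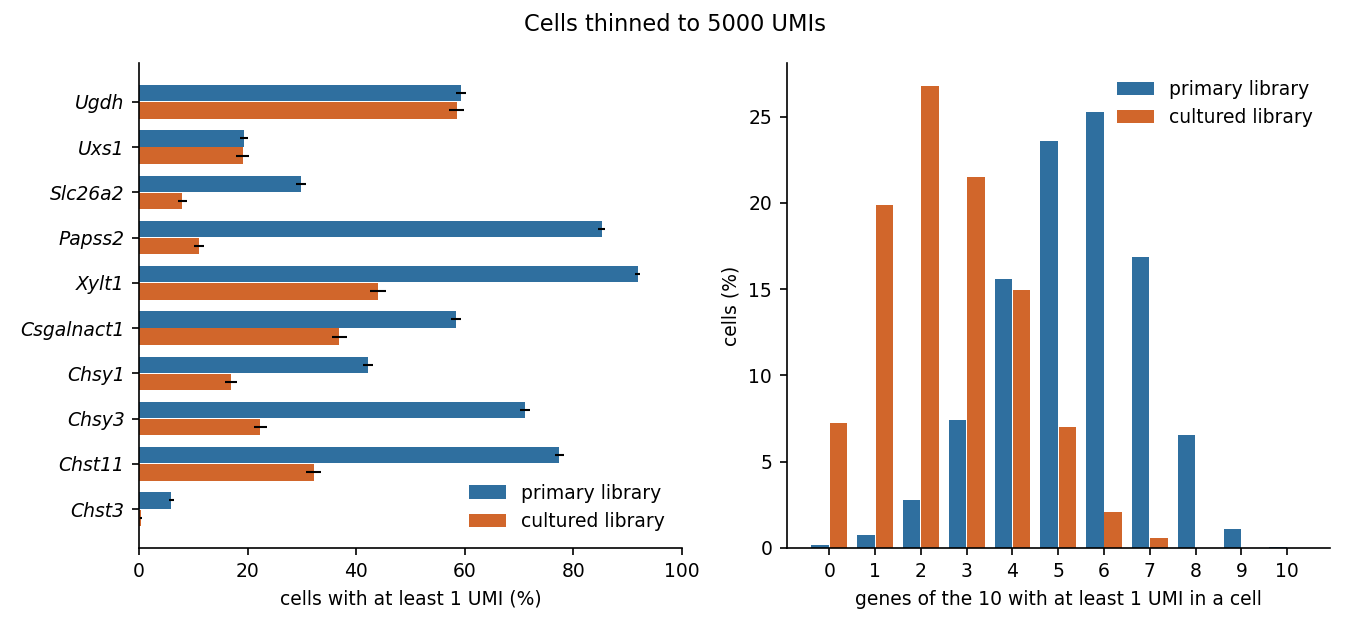
Left, percent of cells in which each gene had 1 UMI or more after thinning to 5000 UMIs, with exact 95% binomial intervals. Right, how many of the 10 genes had a UMI in a cell, as a percent of cells, where primary cells (blue) peak at 6 and cultured cells (orange) at 2.

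Free RNA in droplets can put transcripts into cells that do not make them, so the genes were also read in cells of other types. In 25 endothelial-like cells of the primary library Papss2 stood at 364 CPM, against 815 CPM in the chondrocyte-like cells, a ratio of 0.446 (0.365 to 0.541). The ratio was 0.514 for Xylt1 and 0.509 for Chst11, and 7 of the 10 ratios had intervals below 1. At 5000 UMIs, 11 of 17 endothelial-like cells had a UMI of Papss2. In the cultured library 16 haematopoietic-like cells stood at 16.6 CPM for Papss2, from 8 counts, against 22.9 CPM in the unnamed clusters, a ratio of 0.725 (0.313 to 1.43). There the interval was below 1 for 4 genes, Ugdh, Xylt1, Csgalnact1 and Chst11. It included 1 for Papss2, Uxs1 and Chsy1, and it was above 1 for Slc26a2 at a ratio of 1.89 (1.08 to 3.08), Chsy3 at 1.54 (1.12 to 2.07) and Chst3 at 17.1 (3.48 to 51.3), the last from 3 counts. The levels of these 6 genes in the unnamed cultured clusters were thus not above those of the haematopoietic-like cells beyond counting error, and the part of free RNA in the levels of either library was not tested.

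Within each library the cells were clustered without any gene of the lists, so the levels over clusters describe genes that the clustering did not use. In the primary library, 9 of the 10 clusters of at least 50 cells were chondrocyte-like and 1, with 264 cells, was mesenchymal fibroblast-like. With 30 principal components a primary cluster of 173 cells, led by Tpsb2 and Mcpt4, was mast cell-like. The main clustering gave no cluster of that name, so the naming depends on the clustering. The sum of the 10 genes went from 2264 CPM in cluster 2, led by Clu, Cilp2 and Tll1, to 5098 CPM in cluster 3, led by genes such as Acta2 and Grem1. The median cell held 7351 UMIs in cluster 2 and 12977 in cluster 3. Cluster 8 had a median of 5975 UMIs and a sum of 2452 CPM, and cluster 7 had 7124.5 UMIs and 2721 CPM. Cluster 10, with a median of 6743, stood at 4143 CPM. The part of depth in this range was not tested. Cluster 3 had the highest level of 5 genes, Slc26a2 at 158 CPM, Papss2 at 987 CPM, Xylt1 at 1448 CPM, Chsy1 at 157 CPM and Chsy3 at 1013 CPM. The next cluster lay within counting error for Slc26a2 (157 CPM in cluster 9), Xylt1 (1413 CPM in cluster 6) and Chsy1 (156 CPM in cluster 2), so that cluster 3 stood above all others for Papss2 and Chsy3. Cluster 2 had the lowest level of Uxs1, Slc26a2, Xylt1 and Chsy3, with Chsy3 at 213 CPM, and the next level was within counting error for Uxs1 (38.1 CPM in cluster 8) and Slc26a2 (46.0 CPM in cluster 7). Of the 5 genes highest in cluster 3, Chsy3 had the widest range over the clusters, 4.77-fold.

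Chst3 ran against this order. It was highest in cluster 2 at 34.8 CPM (32.1 to 37.7), next in cluster 5, led by Gpnmb and Prg4, at 19.97 CPM (18.1 to 22.0), and stood at 4.04 CPM (3.28 to 4.92) in cluster 3. Cluster 10, with 123 cells and led by Pknox2 and Zbtb16, had 0 counts of Chst3, with an interval up to 4.25 CPM. The same cluster had the highest Chst11 level, 1299.7 CPM (1225 to 1378), against 733 CPM in cluster 3. It also had the highest Csgalnact1 level, 416 CPM (374 to 461), within counting error of 372 CPM in cluster 6. The median share of mitochondrial UMIs in cluster 10 was 3.38%, where the library's was 1.84%.

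In the cultured library a pair of clusters stood apart in RNA quality, and the counts of lower genes and the cluster ranges are given with and without them. The isoenzyme shares, the shares of cells and the Sox9 reading below were not made without them. Cluster 3 held 826 cells with a median of 1254.5 UMIs and 0.328% mitochondrial UMIs, and cluster 10 held 53 cells with 7.11% mitochondrial UMIs and 1.81% of UMIs from ribosomal protein genes, against 19.05% in the library. Cluster 10 had the highest and cluster 3 the lowest sum of the 10 genes, at 2458 and 302 CPM. In cluster 10, Xylt1 stood at 711 CPM, Csgalnact1 at 477 CPM and Chst11 at 349 CPM. These 3 genes and Chsy3 span 210.4 to 378 kilobases in the genome, and the others 18.7 to 80.8 kilobases. Of the shorter genes, Ugdh (444 CPM), Papss2 (56.5 CPM) and Chsy1 (73.4 CPM) were also highest in cluster 10, Chsy1 within counting error of cluster 6. Slc26a2, Uxs1 and Chst3 were highest in other clusters. Whether intronic reads were counted is not stated, and the part of RNA quality in these levels was not tested. Without both clusters, 8 of the 10 genes were still lower by 2-fold or more in cultured CDSCs and 0 were higher, with a median log2 ratio of -2.44.

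Among the other 8 cultured clusters, cluster 6, with 375 cells and led by Mmp13, had the highest level of 6 genes, Uxs1, Xylt1, Csgalnact1, Chsy1, Chsy3 and Chst11. Chsy3 varied most of these, from 21.4 CPM in cluster 1 to 215 CPM (209 to 222) in cluster 6, a 10.0-fold range. Csgalnact1 reached 256 CPM in cluster 6, above the 224 CPM of the whole primary library. Papss2 did not follow, with 26.1 CPM in cluster 6 and a highest level of 36.9 CPM in cluster 4, led by Cytl1 and Edil3. The ranges of the primary and the cultured clusters were apart for 5 genes when clusters 3 and 10 were left out, Slc26a2, Papss2, Xylt1, Chsy1 and Chst11, and for 3 genes with them, Slc26a2, Papss2 and Chsy1. The same count was not made over all genes, so how common such ranges were is not known. The lowest primary level of Papss2 was 406 CPM, in the mesenchymal fibroblast-like cluster.

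**Figure D5:**
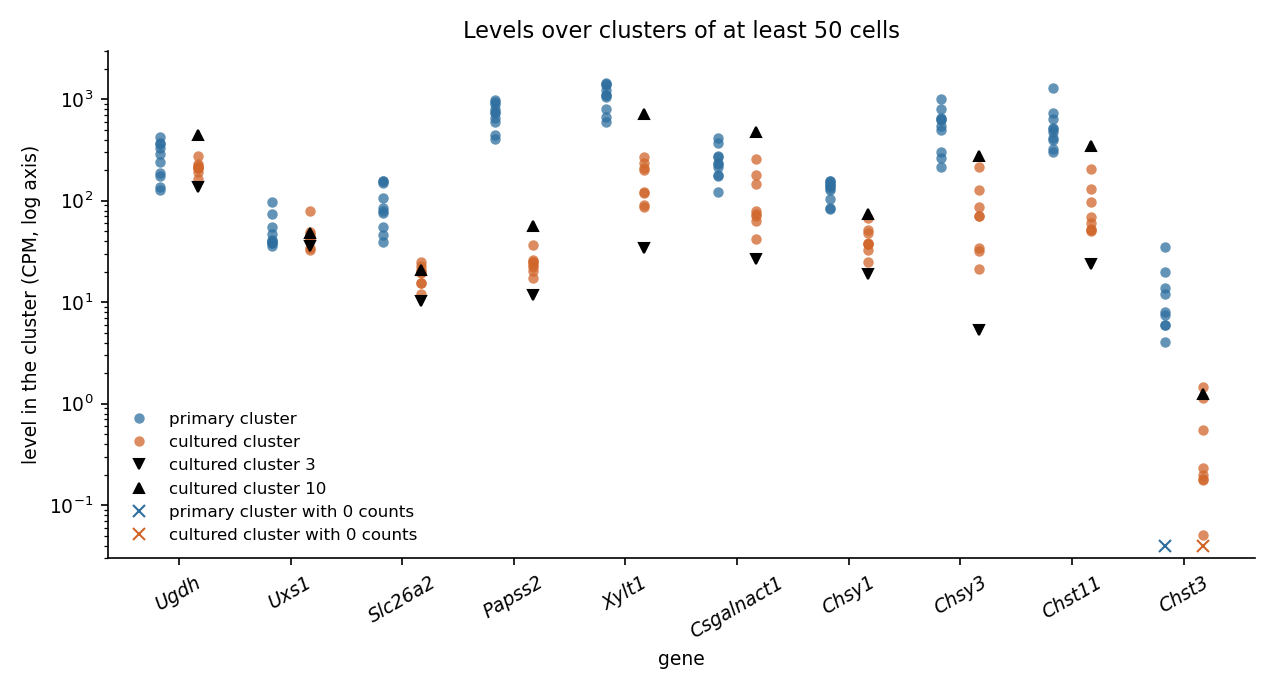
Level of each gene in every cluster of at least 50 cells, in CPM on a log axis, with primary clusters in blue, cultured clusters in orange and the cultured clusters 3 and 10, which stood apart in RNA quality, as black triangles. For Papss2 the primary clusters start at 406 CPM and the cultured clusters end at 56.5 CPM, and for Chst3 the crosses at the lower edge are clusters with 0 counts.

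Genes with the pattern most like the sum of the 10 genes were sought over the 10 clusters of each library. In the primary library these were M1ap, Epyc, Pla2g7, Me1 and Acan among 7662 genes, with Pearson's r from 0.95 to 0.98. Epyc and Acan encode core proteins that carry chondroitin or dermatan sulfate chains. In the cultured library they included Bckdhb, Atp10d, Metap1d and Bmp5 among 8472 genes, with r from 0.99 to 1.00, over points that include clusters 3 and 10. The clusters of a library share its cells' preparation and sequencing, so these values are a description.

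Sox9, the transcription factor that directs the chondrocyte program, was read in the same cells. Its level was 1308 CPM for primary cells and 81.2 CPM for cultured cells. Among primary chondrocyte-like cells at 5000 UMIs, 447 had no Sox9 UMI, 814 had 1 and 9512 had 2 or more. In that order Papss2 stood at 523, 594 and 809 CPM, Xylt1 at 654, 800.0 and 1133 CPM, Chsy3 at 316, 358 and 579.6 CPM and Slc26a2 at 49.7, 65.1 and 84.7 CPM. Csgalnact1 stood at 243, 238 and 222 CPM, with an interval of 223 to 264 in the cells without Sox9, and Chst3 at 29.5, 21.9 and 13.0 CPM. Ugdh stood at 181, 224 and 290 CPM in the same order, and Chst11 at 351, 397 and 485 CPM. Chsy1 stood at 120, 117 and 141 CPM, and Uxs1, with overlapping intervals, at 39.4, 41.5 and 46.1 CPM. Beyond counting error, Ugdh, Slc26a2, Papss2, Xylt1, Chsy1, Chsy3 and Chst11 were thus higher in cells with 2 or more Sox9 UMIs than in cells without. Chst3 was lower in them, and the intervals of Csgalnact1 and Uxs1 overlapped. The rise was not limited to genes lower by 2-fold or more in cultured CDSCs, since Ugdh was within 2-fold. The same reading was not made over all genes.

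In the cultured library Papss2 did not differ with Sox9 beyond its counting interval, while Xylt1 and Slc26a2 were higher with more Sox9. Papss2 stood at 24.3 CPM in 3157 cells without a Sox9 UMI and at 24.7 CPM (18.1 to 32.9) in 373 cells with 2 or more. Xylt1 stood at 167 CPM (161 to 174) and 228 CPM (207 to 251), and Slc26a2 at 16.1 CPM (14.2 to 18.2) and 27.3 CPM (20.4 to 35.95). Cultured cells with 2 or more Sox9 UMIs thus held far less Papss2 than primary chondrocyte-like cells without any, which stood at 523 CPM (493 to 554).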

How the data were processed

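The deposited matrices hold unnormalized UMI counts, which the authors made with Cell Ranger 7.0.0 from 10x 3′ libraries aligned to mm10/GRCm38, with cell barcodes already called. The submitters' processing notes also name GRCm39, and the annotation release is not given in the sources used here. Groups came from the treatment labels, and 0 columns were left unassigned. The study removed low-quality cells with thresholds it does not state, so the filter here asked for 500 genes and 1000 UMIs or more per barcode, with mitochondrial UMIs no higher than 10%. Of 11896 primary barcodes 150 failed, and of 10798 cultured barcodes 5460 failed. The kept depth was 137148874 and 330129909 UMIs, so that 3 counts stood for 0.0219 and 0.00909 CPM. Scrublet (scanpy 1.11.5) called 0 primary and 1 cultured doublets and had not worked, so no cell was removed, and removal of the highest scores (1118 and 461 cells) was an alternative.

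UMIs were summed over cells and scaled to a total of 1000000 (CPM). Log2 ratios are cultured over primary, with counts under 3 raised to 3. Intervals are exact (Poisson for levels, Clopper-Pearson for shares, conditional for ratios) at 95%. The interval code was tested on simulated data. Cells were thinned without replacement to 5000 UMIs. Each library was clustered with Leiden (leidenalg 0.10.2, resolution 0.5, 20 neighbors, 10 principal components, 2000 variable genes without the listed genes). A cluster was named with at least 3 markers at 50 CPM and 4-fold excess, or as chondrocyte-like with at least 3 chondrocyte markers at 1000 CPM. Alternatives used TMM factors (edgeR 4.0.16), median-of-ratios size factors (DESeq2 1.42.0), other cell filters, depths and clusterings. Gene coordinates are from GENCODE M21 (GRCm38) by gene identifier. Named genes are the 10 genes, list members with at least 10 CPM in either library, isoenzyme partners, and the 5 genes of most like pattern in each library. A few genes that the rule names are not reported here. Sox9, ZsGreen, Uty, Itgav, Ptprc, Gm43552 and the leading genes of clusters are named outside that rule, with their values seen. The 10 genes and the lists were chosen with earlier results of these data known. Leaving out cultured clusters 3 and 10, reading Sox9 in chondrocyte-like cells alone, and counting the same list genes under TMM factors, were chosen after seeing the data.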

Additional observations from a re-analysis of the deposited data

How the results depend on the processing

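The counts of 8 genes at least 2-fold lower and 0 higher held under every scaling, cell filter, doublet removal and choice of cells that was run, and 6 were lower at 4-fold. The median log2 ratio over all 10, -2.44, became -2.64 with TMM factors, -2.66 with median-of-ratios size factors and -2.18 with each cell weighing the same. These scalings moved the median of all genes from 0.37 to 0.16, 0.13 and 0.39. Of the ratios of single genes, 70 stayed within their counting intervals, 29 moved and 1 turned. The Uxs1 ratio, -0.16, turned to 0.13 with each cell weighing the same. Of the isoenzyme shares 16 stayed and 8 moved, and of the cluster ranges of single genes 31 stayed and 13 moved. With 30 principal components the range over cultured clusters went from 20.7-fold to 64.8-fold for Xylt1 and from 14.6-fold to 40.9-fold for Chst11. The genes with a higher share of cells in the cultured library were 0 at 5000 UMIs, 1 at 2000 UMIs (Uxs1, 8.40% and 8.52%) and 4 without thinning. The other genes of the 5 synthesis lists that were higher numbered 4, and 2 with TMM factors, where Chst7 (log2 ratio 4.96) left because its level fell to 9.97 CPM, under the minimum of 10, and Dsel because its ratio fell to 0.81. Over the same 28 genes, a count added after seeing the data, 3 were higher. The share of all genes past 2-fold was 39.8%, and 44.0% with a minimum of 1 CPM. At that minimum 5 of the other genes of the synthesis lists were higher and 14 were lower. The cause of these shifts was not tested. Over the alternatives, Papss2 ranged from -5.35 to -5.07 and Csgalnact1, the gene nearest the threshold, from -1.24 to -1.001. No paired analysis was possible because each group is 1 library. Depth limits Chst3 most, with 121 cultured counts, while the spread between animals, cultures and sequencing runs could not be estimated.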

Other observations

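In the heparan sulfate branch, 15 of 22 genes reached 10 CPM in either library, of which 5 were higher and 4 lower by 2-fold or more in cultured CDSCs, with a median log2 ratio of 0.38. Over all genes 27.2% were higher and 12.5% lower by as much, with a median of 0.37. Hs6st2, a heparan 6-sulfotransferase gene, went from 2.15 to 542 CPM, a log2 ratio of 7.98, and Sulf1, whose product removes 6-sulfate from heparan sulfate outside the cell, from 6.58 to 459 CPM, a log2 ratio of 6.13. Extl1, an exostosin relative, went from 27.6 to 0.251 CPM. Ext1, a heparan polymerase gene, went from 234 to 461 CPM, a log2 ratio of 0.98 that did not reach 2-fold. Sulf2, which acts like Sulf1, went from 139 to 89.8 CPM, a log2 ratio of -0.63.

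Of the hyaluronan synthases, Has1 went from 20.7 to 3.85 CPM and Has2 from 33.3 to 6.62 CPM, a difference of more than 2-fold for both. Of 9 genes of lysosomal breakdown, 3 were higher by 2-fold or more, among them Ids at a log2 ratio of 1.32 and Sumf1 at 1.15, and 2 were lower, among them Hexa at -1.19. Their median log2 ratio was 0.57, beside 0.37 for all genes, of which 27.2% were higher and 12.5% lower by 2-fold or more.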
